A study of Mus musculus with 6 samples.

Results

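The genes described here encode 7 Tudor domain proteins (Tdrd1, Tdrd3, Tdrd5, Tdrd6, Tdrd7, Tdrd9 and Tdrkh) and the 3 mouse Piwi proteins (Piwil1, Piwil2 and Piwil4). They were taken by gene symbol from the array annotation, all 10 were measured by 1 row each, and they are 10 of 30142 named genes on the array. The group was chosen by the values of Tdrd9 in Dnmt3b-KO and control leukaemia, which were already known from these data, and by family membership for the rest. Every difference of a member is therefore given as a description of these arrays and not as a test. The RNA came from mouse acute myeloid leukaemia cells induced by MLL-AF9, a fusion oncogene that acts as an aberrant transcriptional regulator. There were 3 arrays of Dnmt3b-KO leukaemia and 3 of leukaemia from littermate controls, which carried the same oncogene. All cells were sorted by flow cytometry from bone marrow of recipient mice with end-stage disease. Dnmt3b encodes a DNA methyltransferase that adds methyl groups to CpG sites. The sources used here do not give the deleted exons, any Cre driver, the sorting gate or the strain and age of the mice, and do not say whether each array was a separate mouse.

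Piwi proteins bind small RNAs called piRNAs and, in the mouse testis, use them to silence transposons, both by cutting their transcripts and by directing DNA methylation to them. Tudor domains bind methylated arginines, and most Tudor proteins in this group hold Piwi proteins and their partners together in granules of male germ cells. Many genes of this pathway carry methylated promoters in somatic cells, where their transcripts are scarce.

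Tdrd9 and Tdrd5 were the members with the clearest differences, in opposite directions. Their annotated promoters differ widely in CpG content, and a relation between CpG content and expression was not tested. The windows below, from RefSeq on build GRCm38.p6, run from 250 bases before to 50 bases after the annotated start, 5′ to 3′ on the strand of the gene, with CpG dinucleotides in capitals. They are shown because CpG sites are the substrate of the deleted enzyme. The Tdrd9 window is chr12:111971309-111971608 on the plus strand, and the Tdrd5 window is chr1:156303299-156303598 on the minus strand.
Tdrd9: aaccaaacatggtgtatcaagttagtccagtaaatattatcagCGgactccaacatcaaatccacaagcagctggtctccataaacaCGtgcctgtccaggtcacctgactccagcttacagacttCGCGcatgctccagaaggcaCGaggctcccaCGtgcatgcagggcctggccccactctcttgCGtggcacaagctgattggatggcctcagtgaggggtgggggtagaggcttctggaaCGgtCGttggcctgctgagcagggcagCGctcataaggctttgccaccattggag
Tdrd5: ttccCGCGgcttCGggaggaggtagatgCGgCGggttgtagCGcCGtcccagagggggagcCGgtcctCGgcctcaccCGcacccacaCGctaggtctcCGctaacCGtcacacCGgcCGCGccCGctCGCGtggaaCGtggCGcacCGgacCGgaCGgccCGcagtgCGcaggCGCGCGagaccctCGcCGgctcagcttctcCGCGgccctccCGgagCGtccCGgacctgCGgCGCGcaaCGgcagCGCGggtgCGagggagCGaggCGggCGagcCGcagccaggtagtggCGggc

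The Tdrd9 window held 10 CpGs, and the Tdrd5 window held 48. Over 32851 windows of the same length the median was 7 CpGs, so that Tdrd9 lay above 56.5% of windows and Tdrd5 above 98.8%. Promoters were found for 8 of the 10 genes, in 13 windows, of which 10 held more CpGs than the median. The window of Tdrd3 held 43 CpGs, that of Tdrkh 25 and that of Piwil1 18. Tdrd1, Tdrd7 and Piwil4 had several annotated starts, with 3 to 25, 4 to 32 and 0 to 11 CpGs. The letters CACGTG, an E-box that reads the same on both strands, occurred in the windows of Tdrd9, Tdrd1 and Piwil1, and in 7.15% of all windows. The letters TCCCGC on either strand, a core recognised by E2F factors, occurred in those of Tdrd5 and Tdrd3, and in 20.0% of all windows. Each of these letter strings itself contains a CpG. No methylation was measured, and a match of letters is not a binding site.

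**Figure D1:**
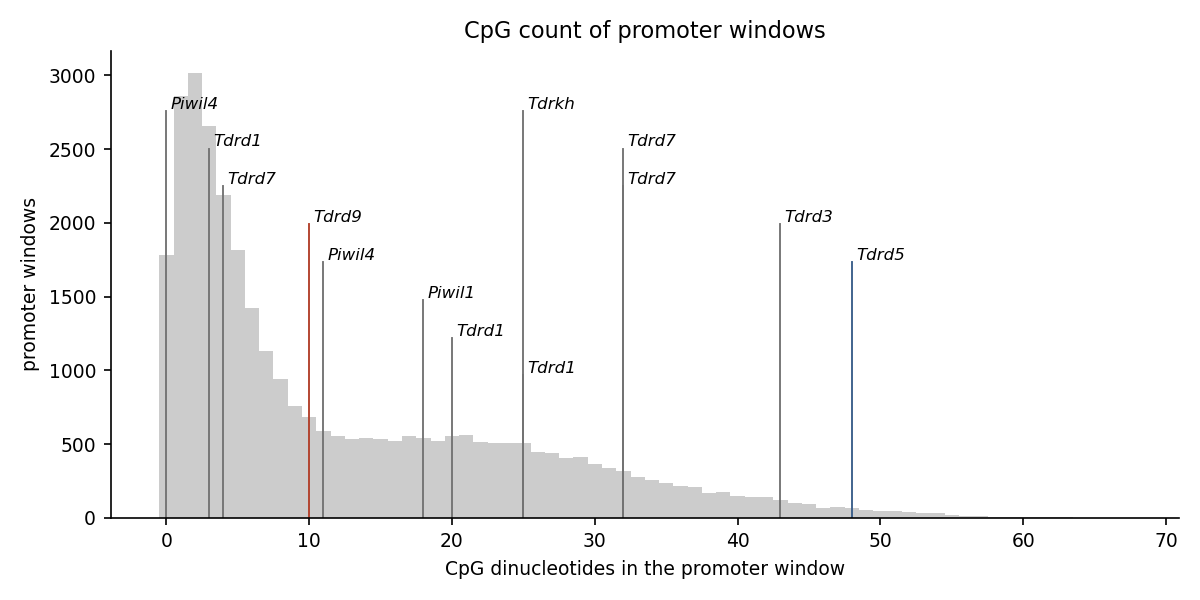
Number of CpG dinucleotides (horizontal axis) in 32851 promoter windows of 300 bases (grey bars, number of windows), with a line for each annotated window of the Tudor and Piwi genes. Tdrd9 (red, 10 CpGs) sits near the middle of all windows and Tdrd5 (blue, 48 CpGs) at the upper end.

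Values are on the authors' log2 scale, which reaches 19.59 and so exceeds the 16-bit range of a scanner. Differences are therefore given in log2 units and not as folds. The median gene lay between 4.75 and 4.85 on the 6 arrays, and 23 rows whose names mark them as background controls ran from 2.30 to 5.62. Dnmt3b itself measured 6.47, 6.63 and 5.96 in Dnmt3b-KO replicates 1, 2 and 3, against 6.76, 6.83 and 6.78 in the controls. Its row covers the transcript and not a stated exon, so it checks the labels only weakly. Dnmt3b-KO replicate 3 stood apart from the rest, with correlations across genes of 0.981 to 0.982 with the other arrays, which correlated at 0.998 to 0.999 among themselves. On that array 5 of 8 macrophage markers were higher by more than 1 log2 unit than on Dnmt3b-KO replicates 1 and 2, and 1 was lower. The mean of those 8 markers was 10.45 there and 7.47 on Dnmt3b-KO replicates 1 and 2, against 7.46 to 7.55 in control. Cd163 and C1qa, also macrophage markers, stayed near the median gene on it, at 4.89 and 4.84. Differences are therefore given without it and over all 6 arrays, and the part of these markers in the values was not tested. The 6 measured markers of myeloid leukaemia lay above the median gene on all arrays, and their mean was 12.64 to 13.13 in Dnmt3b-KO and 12.34 to 12.43 in control. Among them Meis1, a leukaemia transcription factor gene, rose by 0.65 without replicate 3 (limma, adjusted p = 0.011). Over all 6 arrays its means were close, at 11.42 in Dnmt3b-KO and 11.37 in control. On replicate 3, Csf1r and Itgam lay 4.59 and 1.49 above Dnmt3b-KO replicates 1 and 2, and Kit and Meis1 differed from them by -1.70 and -1.81. Markers of lymphoid, erythroid and stromal cells, 10 measured in all, lay below it on all arrays. Of 5 germ cell markers, Dazl, Tnp1 and Prm1 lay below the median gene on every array, and the mean of the 5 was 4.17 to 4.24 in Dnmt3b-KO and 4.22 to 4.23 in control. In sorted bulk cells, a change in the number of cells that express a gene and a change in RNA per cell cannot be told apart.

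Tdrd9 was higher in Dnmt3b-KO leukaemia. It encodes a DExH-box RNA helicase with a Tudor domain that works with Piwil4 in fetal male germ cells to silence LINE retrotransposons. It measured 7.59, 7.87 and 6.29 in Dnmt3b-KO replicates 1, 2 and 3, against 5.36, 5.37 and 5.28 in the controls. The 3 Dnmt3b-KO arrays lay above every control, with replicate 3 the lowest of them. Set against the top background row of its own array (5.62), control replicate 2 lay below it. Control replicates 1 and 3 lay above theirs (4.97 and 4.96), though below the highest background row over the 6 arrays. The difference was 2.39 ± 0.09 log2 units (SE) for Dnmt3b-KO replicates 1 and 2 over control, and 1.91 ± 0.41 over all 6 arrays. Without replicate 3, this was the highest of the 30142 differences. Over all 6 arrays it ranked 44 from the top. Because the control level is near background, the size of the difference is not exact.

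Tdrd5 was lower in Dnmt3b-KO leukaemia. Its product is needed for the assembly of germ granules and for retrotransposon silencing in mouse spermatogenesis. It measured 5.65, 5.81 and 5.26 in Dnmt3b-KO replicates 1, 2 and 3, against 6.28, 6.41 and 6.41 in the controls. Here too the groups did not overlap, and replicate 3 lay farther from the controls than the other Dnmt3b-KO arrays, at a level below the top background row of that array. The difference was -0.64 ± 0.08 log2 units (SE) without replicate 3 and -0.80 ± 0.15 over 6 arrays. Without replicate 3 it ranked 138 from the bottom of all genes.

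**Figure D2:**
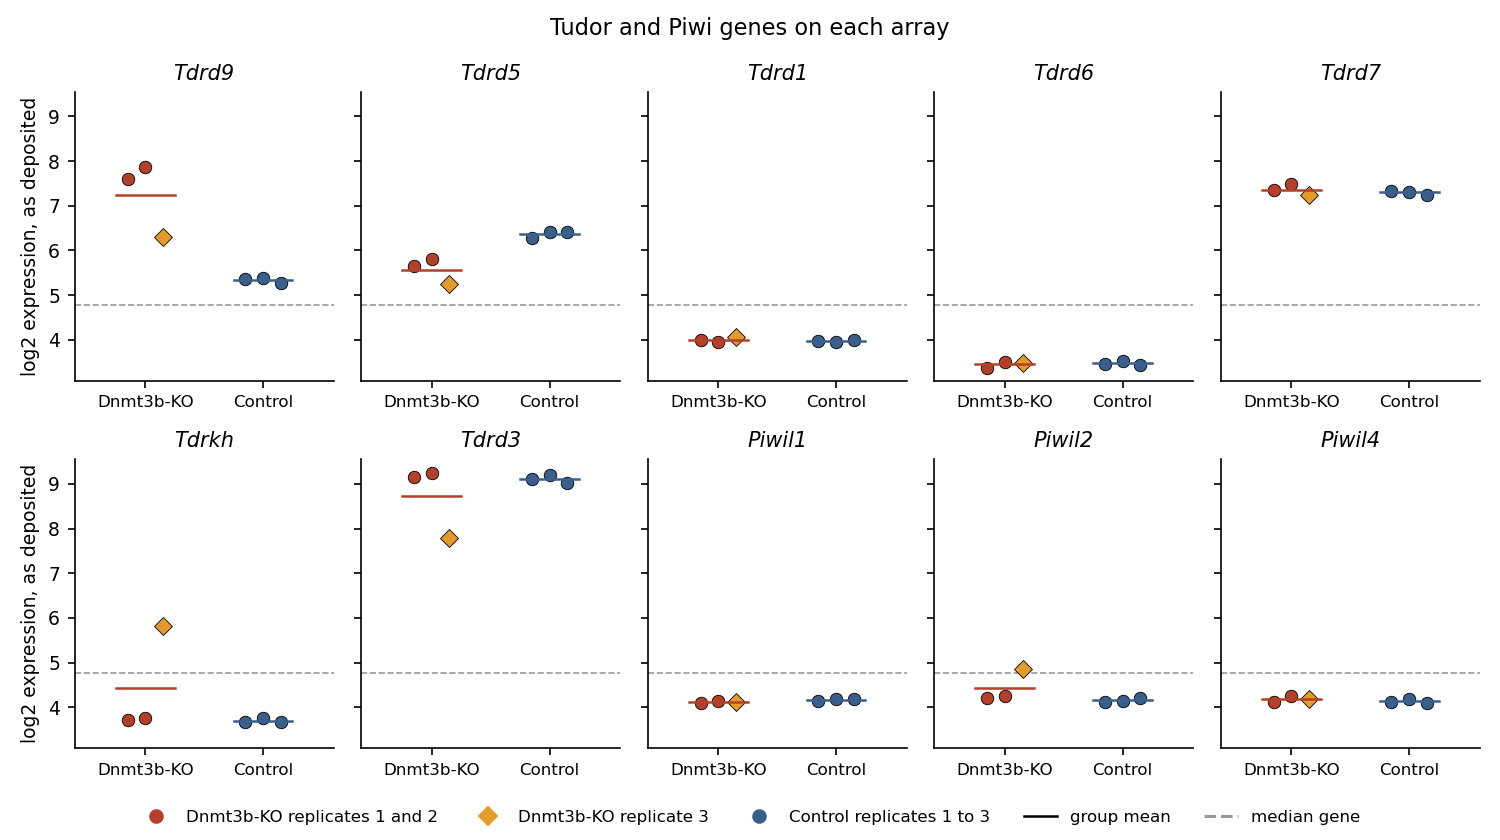
Deposited log2 expression of each Tudor and Piwi gene (vertical axis) on the 3 Dnmt3b-KO arrays (red circles, replicates 1 and 2, and orange diamond, replicate 3) and the 3 control arrays (blue), with group means as lines and the median gene dashed. Tdrd9 is higher and Tdrd5 lower on all 3 Dnmt3b-KO arrays, Tdrkh is high only on replicate 3, and Tdrd1, Tdrd6, Piwil1 and Piwil4 stay below the median gene.

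The other 4 Tudor scaffolds of germ granules had no such difference in Dnmt3b-KO replicates 1 and 2. Tdrd1, a partner of Piwil2, measured 3.99, 3.95 and 4.07 in Dnmt3b-KO, against 3.98, 3.96 and 3.99 in control. Tdrd6, which builds the chromatoid body of spermatids, measured 3.38, 3.52 and 3.48 in Dnmt3b-KO, against 3.46, 3.53 and 3.43 in control. Both lay below the median gene and below the top of the background rows on all 6 arrays, so a difference at this level may not be detectable. Tdrd7, which is also known for its role in the lens, was well measured, at 7.35, 7.49 and 7.24 in Dnmt3b-KO, against 7.33, 7.32 and 7.24 in control. Its groups overlapped, and its difference was 0.12 ± 0.07 (SE) without replicate 3 and 0.06 ± 0.08 over 6 arrays. Tdrkh, a mitochondrial scaffold on which piRNA ends are trimmed, measured 3.72, 3.75 and 5.81 in Dnmt3b-KO, against 3.67, 3.76 and 3.67 in control. Its difference of 0.73 ± 0.58 over 6 arrays rested on replicate 3 and was 0.04 ± 0.06 without it. On the other 5 arrays Tdrkh lay below the top of the background rows, which limits the second value in the same way.

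Tdrd3 is the member least tied to germ cells. It reads methylarginine marks on histones and partners a topoisomerase in many cell types. It measured 9.15, 9.25 and 7.78 in Dnmt3b-KO, against 9.12, 9.20 and 9.01 in control. Dnmt3b-KO replicates 1 and 2 lay at the level of the controls, whereas replicate 3 lay 1.33 below the control mean. Its difference was 0.09 ± 0.08 (SE) without replicate 3 and -0.38 ± 0.40 over 6 arrays.

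The Piwi genes themselves, whose products are the piRNA-binding partners of the Tudor proteins, differed by less than 0.1 log2 unit from control on Dnmt3b-KO replicates 1 and 2. Piwil1, the Piwi protein of spermatids, measured 4.10, 4.14 and 4.13 in Dnmt3b-KO, against 4.15, 4.18 and 4.18 in control. These groups did not overlap, but the difference of -0.05 ± 0.05 (SE), both over 6 arrays and without replicate 3, was close to its error. That error is moderated over all genes by the empirical Bayes step of limma. Without this step it was 0.02 in the comparison without replicate 3, smaller than the difference. That fit called 0 of all genes, so nothing is read from Piwil1 not being called there. Piwil2, which binds primary piRNAs, measured 4.21, 4.25 and 4.86 in Dnmt3b-KO, against 4.11, 4.15 and 4.21 in control. Its value on replicate 3 was 0.63 above the mean of Dnmt3b-KO replicates 1 and 2, and its difference was 0.07 ± 0.06 without that array and 0.28 ± 0.18 over 6 arrays. Piwil4, the nuclear Piwi protein that works with Tdrd9 in fetal germ cells, measured 4.12, 4.26 and 4.18 in Dnmt3b-KO, against 4.12, 4.20 and 4.09 in control. Its difference was 0.05 ± 0.07 in both readings. All 3 Piwi genes lay below the top of the background rows on all 6 arrays.

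**Figure D3:**
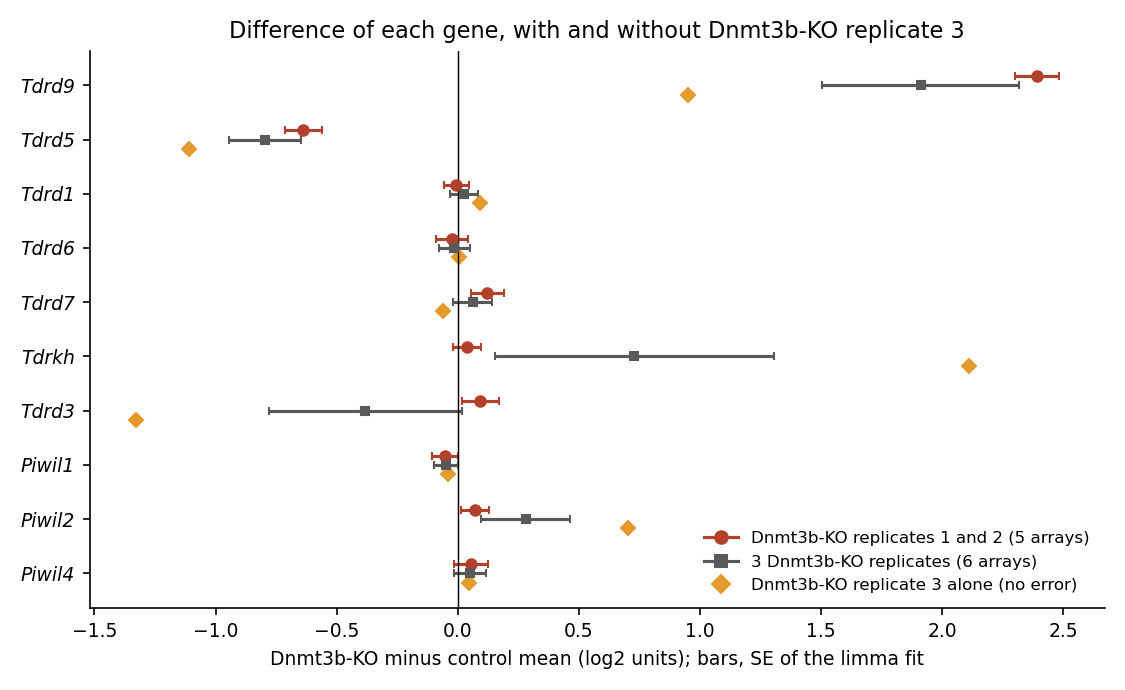
Difference from the control mean in log2 units (horizontal axis) for each gene, for Dnmt3b-KO replicates 1 and 2 (red circles), all 3 Dnmt3b-KO replicates (grey squares) and replicate 3 alone (orange diamonds, no error), with bars for the SE of the limma fit. Tdrd9 and Tdrd5 keep their direction in all 3 readings, while Tdrkh, Tdrd3 and Piwil2 lie near 0 without replicate 3 and away from it on replicate 3 and, through it, over 6 arrays.

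Across the whole group, the Dnmt3b-KO and control arrays did not overlap for 3 of 10 members, 1 higher and 2 lower, where 14.9% of all genes did not overlap (6.68% higher and 8.21% lower). Fitted with limma over 6 arrays and adjusted over all 30142 genes, 0 members passed an adjusted p of 0.05, as did 0% of all genes. Unadjusted p was under 0.05 for 2 members, Tdrd9 and Tdrd5, and for 1920 genes. Without Dnmt3b-KO replicate 3, limma called 2 of 10 members, Tdrd9 on the higher side and Tdrd5 on the lower, beside 1.69% of all genes (0.939% higher and 0.75% lower). Since the group was built around this contrast, nothing is read from that share. The other 8 members had differences from -0.05 to 0.12 log2 units. The median difference of the 10 was 0.05 without replicate 3 and 0.04 over 6 arrays, against -0.01 and -0.004 for all genes. Tdrd9 passed with any 1 control array left out, and its difference was 2.25 to 2.53 with any 1 further array left out. The group was chosen by these same Tdrd9 values, so this is a description and not support. Without Dnmt3b-KO replicate 1 or 2, the Tdrd5 difference was -0.56 and -0.72. Tdrd5 did not pass without control replicate 1, 2 or 3, where its difference was -0.68, -0.62 and -0.62. Over all genes, the 509 called became 43, 262 and 97 there. A test without empirical Bayes called neither, and it called 0 of all 30142 genes, so nothing is read from it. Between Dnmt3b-KO replicate 3 and the mean of replicates 1 and 2, 3 of 10 members differed by more than 1 log2 unit, Tdrkh by 2.08, Tdrd9 by -1.44 and Tdrd3 by -1.42, where 6.97% of all genes did (4.03% higher and 2.94% lower).

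The position of Tdrd9 on chromosome 12 was examined through its nearest measured neighbours in the RefSeq gene order. On one side lie Ppp1r13b, which encodes a p53-binding protein, the long non-coding RNA 5033406O09Rik and Atp5mpl, which encodes a small subunit of mitochondrial ATP synthase. On the other lie Rd3l, which overlaps Tdrd9, Aspg, which encodes an asparaginase, and the microRNA gene Mir3073b. None of the 6 passed the threshold of limma without replicate 3, with 0.17 for 5033406O09Rik as the difference farthest from 0 (-0.02 over 6 arrays). Rd3l measured 3.42, 3.52 and 3.58 in Dnmt3b-KO, against 3.38, 3.46 and 3.47 in control. Over 6 arrays 0 of these neighbours passed.

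Genes that followed Tdrd9 across the 6 arrays were sought among 2629 genes above the median level with a range of at least 1 log2 unit. The 5 with the highest Pearson correlation over these arrays were Bcar3 (0.988), Stag3 (0.981), Trf (0.977), Lipo3 (0.976) and Psma8 (0.973). The points are the same 6 arrays in 2 groups, so any gene higher in Dnmt3b-KO with an intermediate replicate 3 scores highly. The filters on level and range also favour such genes: Lipo3 and Psma8, with control means of 4.48 and 4.65, passed the one on level only through the Dnmt3b-KO arrays. The likeness is a description of how these genes were chosen. Psma8 encodes a proteasome subunit of the testis. It measured 5.61, 5.72 and 5.16 in Dnmt3b-KO, against 4.64, 4.50 and 4.80 in control. Bcar3, which encodes a signalling adaptor, measured 6.85, 6.94 and 6.36 in Dnmt3b-KO, against 5.95, 5.83 and 6.02 in control. Trf encodes transferrin and Lipo3 a lipase. Their differences were 2.20 and 1.03 log2 units without replicate 3, and 1.92 and 0.74 over 6 arrays.

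**Figure D4:**
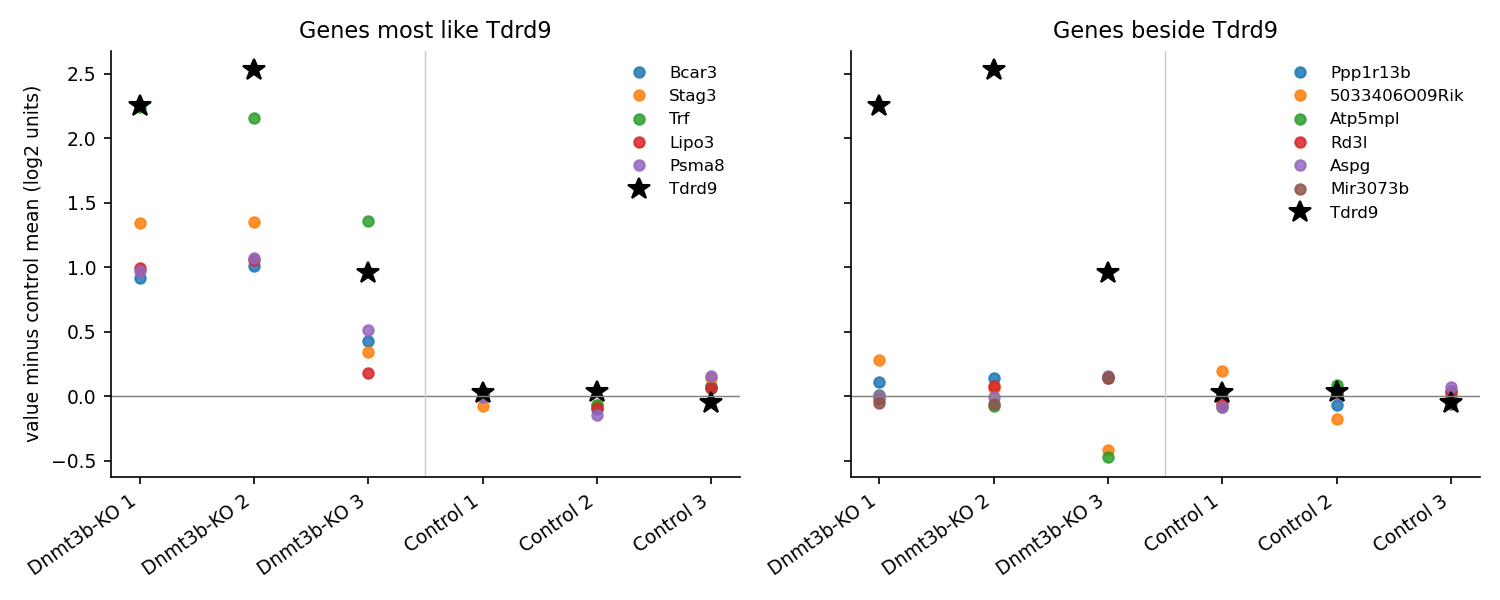
Value minus control mean in log2 units (vertical axis) on each array for Tdrd9 (black stars), with the 5 genes most like it (left panel) and its 6 nearest measured neighbours (right panel). The genes most like Tdrd9 were chosen for this pattern, and the neighbours stay below 0.5 where Tdrd9 reaches 2.53.

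The surrounding pathway was described with 5 lists of 108 genes, of which 100 were measured. Several of these genes, among them Dmc1 and Stag3, were known from these data to differ. Without replicate 3, limma called 2 of the 100, or 2%, beside 1.69% of all genes, and both were germ cell and meiosis genes. Over 6 arrays it called 0 of the 100, beside 0% of all genes. Of 34 measured germ cell and meiosis genes, 2 rose, 0 fell and 32 did not pass. The list's median was 0.02, against -0.01 for all genes (0.05 and -0.004 over 6 arrays), and 21 of its members had differences above 0. So did 11 of 22 other Tudor domain genes, 7 of 18 piRNA partners, 4 of 10 Argonaute and microRNA genes and 7 of 16 repressors. The share of all genes above 0 was not counted, so nothing is read from these counts. Dmc1, the recombinase of meiosis, measured 11.27, 11.21 and 9.68 in Dnmt3b-KO, against 9.90, 9.89 and 9.72 in control. It rose by 1.40 ± 0.07 log2 units (SE; limma, adjusted p = 0.0029) without replicate 3. On replicate 3 it lay below every control, and the difference over 6 arrays was 0.88 ± 0.44 (limma, adjusted p = 0.82). Stag3, a cohesin subunit of meiosis, measured 6.37, 6.37 and 5.37 in Dnmt3b-KO, against 4.95, 4.96 and 5.16 in control. It rose by 1.35 ± 0.08 (SE; limma, adjusted p = 0.0045), and replicate 3 lay above the controls. Over 6 arrays it differed by 1.01 ± 0.29 (limma, adjusted p = 0.66). Without Dnmt3b-KO replicate 1 as well, the adjusted p of limma was 0.053 for Dmc1 and 0.061 for Stag3, and without Dnmt3b-KO replicate 2 it was 0.032 and 0.051.

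The other lists held no call. Of 22 other Tudor domain genes, 0 passed, with a median difference of 0.00008 and a range of -0.25 to 0.31. The smallest p was that of Phf20l1, a reader of methylated lysine, at 0.31 ± 0.05 (SE; limma, adjusted p = 0.058), and centring the arrays on their medians took it to an adjusted p of 0.0496. On replicate 3 it lay at 10.32, below its control values of 10.74 to 10.79, and its difference over 6 arrays was 0.06 ± 0.21. The closest relatives of the Tudor members, named here after their values were seen, were Tdrd12, Stk31 and Rnf17. Tdrd12, a helicase related to Tdrd9, measured 3.80, 3.76 and 3.67 in Dnmt3b-KO, against 3.75, 3.75 and 3.85 in control, and Stk31 differed by 0.004 without replicate 3. Rnf17, another germ granule protein gene, measured 8.52, 8.66 and 6.94 in Dnmt3b-KO, against 8.78, 8.94 and 8.63 in control. Of 18 partners of the piRNA pathway, 0 passed, with a median of -0.03. Among them Prmt5, the enzyme that places the arginine marks that Tudor domains read, had the smallest p, at -0.29 ± 0.06 (SE; limma, adjusted p = 0.076). It measured 13.54, 13.55 and 13.25 in Dnmt3b-KO, against 13.84, 13.78 and 13.87 in control, so its groups did not overlap, and its difference over 6 arrays was -0.38 ± 0.10. Ddx4, the germ cell helicase also called Vasa, and Mael and Mov10l1, further piRNA factors, differed by -0.14, -0.007 and 0.004 without replicate 3 and by -0.06, 0.0008 and 0.02 over 6 arrays. Of 10 genes of the Argonaute and microRNA pathway, which works through the somatic relatives of Piwi proteins, 0 passed, with a median of -0.03. Ago2 had the smallest p there, at -0.17 ± 0.05 (limma, adjusted p = 0.20), and -0.03 ± 0.13 over 6 arrays. Of 16 repressors of germline genes 0 passed, with a median of -0.04, and Dnmt3b had the smallest p, at -0.24 ± 0.07 (limma, adjusted p = 0.16), and -0.44 ± 0.17 over 6 arrays. Over 6 arrays the medians of these 4 lists were -0.07 (other Tudor domain genes), -0.05 (piRNA partners), -0.07 (Argonaute and microRNA pathway) and -0.12 (repressors).

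**Figure D5:**
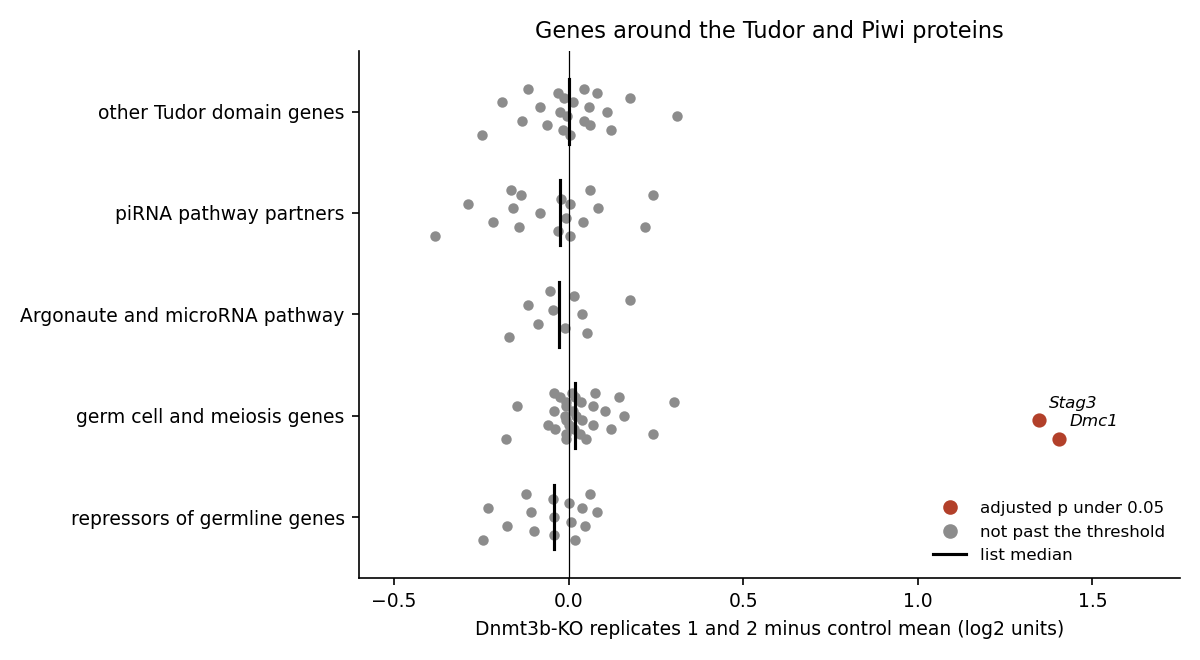
Difference of Dnmt3b-KO replicates 1 and 2 from the control mean in log2 units (horizontal axis) for the 100 measured genes of 5 lists around the Tudor and Piwi proteins, with list medians as black lines. Dmc1 and Stag3 (red) are past the threshold at 1.40 and 1.35, and all other genes (grey) lie between -0.38 and 0.31.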

How the data were processed

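RNA of sorted leukaemia cells was measured on 6 arrays. The deposited values are log2 expression per row, which the authors normalized by RMA (version not given), per the submitters' processing notes. A further step behind values above 16 was not stated. Of 72688 rows, 6732 are array controls, and 30604 carry exactly 1 gene symbol in an older annotation. For 827 rows an older symbol was replaced by the current one of the same gene identifier, and 1 row per gene was kept, that of highest mean, leaving 30142 genes. The Dnmt3b-KO and control arrays were fitted, with no filter on level, by lmFit and eBayes of limma 3.58.1 (R 4.3.3), and p-values were adjusted over all genes by Benjamini-Hochberg with a threshold of 0.05. This was done over 6 arrays and again without Dnmt3b-KO replicate 3. The fit was tested on simulated data with the same spread in both groups and no deviating array. That test does not cover an array like Dnmt3b-KO replicate 3. The alternatives tried were estimated array weights, robust fitting with a variance trend, a replicate block, a further quantile normalization, median centring, leaving out dim genes, averaging the rows of a gene, counting identical values once, a threshold of 0.1, omitting empirical Bayes and leaving out each array. The members, lists and alternatives were chosen with earlier results of these data known. The text names all members, Dnmt3b, list genes past the threshold or else the smallest p, 3 neighbours on each side of Tdrd9 and the 5 genes most like it, clone names passed over in the last group. Promoters came from RefSeq (GRCm38.p6). No source used here names the build behind the array rows. The number of arrays limits the precision, and p-values measure the spread between these arrays, which may be technical.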

Additional observations from a re-analysis of the deposited data

How the results depend on the processing

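Over 6 arrays the count of members called, 0, became 2 with estimated array weights, which weighted Dnmt3b-KO replicate 3 at 0.112 and the other arrays at 1.26 to 2.17, and ranged from 0 to 2 with an array left out. It reached 2 without Dnmt3b-KO replicate 3 and was 0 under the other alternatives run. Without that array the count of 2 became 1 with the replicate block, which kept Tdrd9 (adjusted p = 0.024 in limma) and not Tdrd5 (0.071), 0 without empirical Bayes, and 1 with any further array left out, so the range was 1 to 1. A lone Dnmt3b-KO array is there assumed to vary like the controls. In the replicate block without Dnmt3b-KO replicate 3, control replicate 3 has no partner and adds nothing to a difference. That fit therefore gave the same Tdrd9 difference, 2.36, as leaving control replicate 3 out. The 2 pathway genes called became 4 among genes above the median level (Phf20l1 and Prmt5 joined), 5 at an adjusted p under 0.1 (with Gpat2 too), 0 without empirical Bayes and 0 to 2 with a further array left out. The filter tests fewer genes, and the threshold of 0.1 is a looser cut on the same fit. For the other differences, the cause was not tested. No called member changed sign. Of the differences of single members, 8 moved by more than the spread between replicates, all with a further array left out of the 5-array comparison. Over all genes, the 509 called without replicate 3 became 96 with the replicate block, 996 above the median level, 1148 at 0.1, 0 without empirical Bayes and 13 to 262 with a further array left out, and the 0 over 6 arrays became 103 with array weights. Deviations of same-numbered arrays from their group means correlated at 0.126, 0.0331 and 0.108, and the numbers were not taken as pairs. Signal over background limits Tdrd1, Tdrd6, the Piwi genes, Tdrkh on all arrays but Dnmt3b-KO replicate 3, and Tdrd5 on that replicate. The same holds for Tdrd9 on control replicate 2.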

Other observations

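Among the pathway genes, Pcgf6, a Polycomb subunit of a complex that represses germline genes, measured 6.13, 6.38 and 8.74 in Dnmt3b-KO replicates 1, 2 and 3, against 6.55, 6.59 and 6.32 in control. Of the 16 measured repressors of germline genes it was the 1 that differed by more than 1 log2 unit on Dnmt3b-KO replicate 3, at 2.49 above replicates 1 and 2, where 6.97% of all genes differed by that much. E2f6 and L3mbtl2, further subunits of that complex, differed from replicates 1 and 2 there by -0.72 and -0.92, while Max and Rnf2, also of that complex, lay 0.69 and 0.17 above them. The median of the 16 repressors in this comparison was -0.27. Mga, Wdr5, Yaf2, Ring1, Cbx3 and Tfdp1, also subunits of the Pcgf6 complex, all lay lower, differing by -0.61 to -0.13. Of the rest, Dnmt1, Dnmt3b and Ehmt1 differed by -0.84 to -0.21. Dnmt3a and Ehmt2 lay 0.37 and 0.07 above replicates 1 and 2. These genes were picked after their values were seen, and replicate 3 has no second array of its kind.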
